A study of Mus musculus with 8 samples.

Results

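The insulin-like growth factor axis of mouse mammary epithelium was described here by 9 genes: the ligands Igf1 and Igf2, the type 1 receptor Igf1r, and the binding proteins Igfbp2, Igfbp3, Igfbp4, Igfbp5, Igfbp6 and Igfbp7. They were taken by symbol from a list and make up 9 of the 27998 genes in the count matrices. All 9 were detected. Their unique molecular identifiers (UMIs, tags that count each captured molecule a single time) were summed over the cells of each mouse and cluster, for sums of 20 or more cells, and are given as counts per 1000000 UMIs of that sum (CPM). CPM of different genes were not set against each other, because the assay counts the 3′ ends of transcripts and capture may differ between genes.

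The study profiled single mammary cells of C57BL/6N mice, with no transgene or treatment named, by droplet sequencing at 4 stages of the reproductive cycle. There were 2 mice a stage: virgin (nulliparous, NP) mice aged 8 weeks, pregnant mice at day 14.5 (G), nursing mice at day 6 (L) and mice 11 days after their pups were weaned (PI, post-involution). Cells positive for EpCAM and negative for CD31, CD45 and Ter119 were sorted, and each library held the cells of 1 mouse. The study staged both NP mice and PI mouse 2 as in oestrus and PI mouse 1 as in dioestrus, so within the PI pair the cycle stage and the mouse cannot be told apart. The authors' clusters were used as given: hormone-sensing progenitors (C2 in NP, C1 in PI), differentiated hormone-sensing cells (C4 in NP, C5 in G, C3 in PI), luminal progenitors (C6 in NP, C7 in PI), differentiated alveolar cells (C8 in G, C9 in L), alveolar progenitors (C10 in G, C11 in L), basal cells (C12 in NP and PI, C13 in G, C14 in L) and a Procr+ cluster (C15, in L). Sums per cell type pooled all its clusters whatever the stage, so that, for example, the 59 basal cells of PI mouse 2 held 53 of C12 and 6 of C13 and C14. C15 is counted below with the epithelial clusters, as by the authors, who did not exclude that its cells are non-epithelial. Krt8 and Krt18 summed to 101 and 57.8 CPM in C15, against 1521 and 1039 CPM in C14. Clusters C16 to C19 were the immune, fibroblast and endothelial cells left after the sort.

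Libraries held 1449 to 5736 cells that passed the authors' quality flags, with 13306760 to 34552742 UMIs and 13398 to 71983 UMIs of the 9 genes. Median UMIs per cell ran from 3770 in an L mouse to 9624 in a G mouse. Of 25806 barcodes 791 occurred in more than 1 library, and none of these was among the cells used. Krt5, Krt14 and Acta2, summed, lay between 7597 and 32445 CPM in basal cells and at 13.4 to 197 CPM in the luminal cell types of NP, G and PI mice. In L mice they reached 878 and 2007 CPM in differentiated alveolar cells and 3304 and 4495 CPM in alveolar progenitors, which bears on the lactation results below. Some sums rest on few cells: basal cells of PI mice numbered 28 and 59, and C5 held 20 and 41 cells.

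As background, IGF1 and IGF2 are secreted growth factors that act through the receptor tyrosine kinase IGF1R. The classical binding proteins IGFBP2 to IGFBP6 hold the ligands with high affinity and can block or prolong their action, while IGFBP7 binds insulin-like growth factors only weakly. In the mammary gland the axis is known as a mediator of growth hormone in ductal growth and as a survival signal for milk-secreting cells, and IGFBP5 is known for its rise during involution.

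Igf1, a ligand induced by growth hormone, was highest in stromal cells. In the fibroblasts (C18) it stood at 195 and 99.9 CPM in NP mice, 480 and 226 CPM in G mice and 390 and 594 CPM in L mice, with 254 CPM in PI mouse 2, the only PI mouse with enough of these cells. The endothelial cluster C19 held 43.7 and 34.8 CPM in G and 101.5 and 133 CPM in L. No epithelial cluster other than C15, at 7.76 and 13.3 CPM, exceeded 3.31 CPM in its main stage. In the 7 mice with a fibroblast sum, Igf1 in basal cells was at most 1.37% of the fibroblast level.

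Igf2, the fetal ligand and an imprinted gene, was concentrated in a small cell population of gestation. In C5, the differentiated hormone-sensing cells of G mice, it stood at 2726 and 4575 CPM. The next epithelial levels were 137 and 209 CPM in C15 and 24.5 and 106 CPM in the alveolar progenitors of G mice (C10), and the endothelial cluster C19 held 235 and 609 CPM in L mice. C5 made up 0.736% and 1.46% of the cells of the G mice in C1 to C19, and held 60.6% and 71.0% of their Igf2 UMIs. A UMI of Igf2 was found in 15 of 20 C5 cells, 75.0% (exact 95% interval 50.9 to 91.3), in G mouse 1 and in 39 of 41, 95.1% (83.5 to 99.4), in G mouse 2. The same mice had a UMI in 0.571% and 0.842% of C13 basal cells, which is the background for this comparison, at median depths of 6201 and 6060 UMIs per cell against 6224 and 5514 in C5. At 1000 UMIs drawn from each cell, 65.0% and 90.2% of C5 cells had 1 and 0.190% and 0.168% of C13 cells. Intervals cover counting error only.

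The remaining Igf2 of the alveolar clusters of G mice lay in few cells. In C8, with 1926 and 1818 cells, 8 and 9 cells with 10 or more Igf2 UMIs held 73.3% and 75.9% of the cluster's Igf2 UMIs. In C10, with 89 and 126 cells, 1 and 4 such cells held 84.4% and 99.4%. H19, the imprinted non-coding RNA beside Igf2, had a UMI in 4 of the 8 and 5 of the 9 cells of C8, against 0.626% and 0.774% of the other C8 cells. The 8 and 9 cells also had more UMIs in all, with medians of 20434 and 28098 against 10876 and 8629 in the other cells of C8. All of them had a UMI of Esr1, Prlr or Pgr, which 50.5% and 46.0% of the other cells had. These cells were chosen by their Igf2, so the values are a description. Doublets were not called here beyond the authors' own removal of a doublet cluster, and their part in these cells was not tested.

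**Figure D1:**
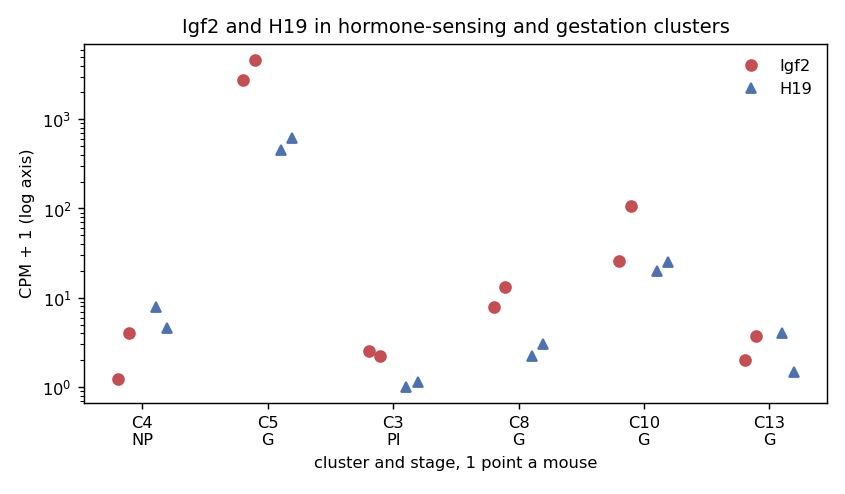
Igf2 (circles) and H19 (triangles) in CPM plus 1, on a log axis, in the differentiated hormone-sensing clusters of each stage (C4, C5, C3) and in 3 further clusters of G mice, with 1 point a mouse. Both genes peak in C5, with Igf2 at 2726 and 4575 CPM and H19 at 454 and 612 CPM.

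Igf1r, the signalling receptor of both ligands, was highest in basal cells among the epithelial clusters. Its levels were 99.1 and 106 CPM in C13, 82.0 and 94.5 CPM in C14 and 57.1 and 55.8 CPM in C12, with no overlap between these 3 clusters. The endothelial cluster C19, at 64.5 and 90.4 CPM in L mice, overlapped C14. Luminal progenitors followed (C6, 50.1 and 47.3 CPM) and overlapped neither C12 nor C7 (35.0 and 35.5 CPM), while C6 and C15 overlapped. Hormone-sensing progenitors held 20.7 to 24.2 CPM (C1 and C2, which overlapped), and the differentiated cells C3 and C4 held 1.86 to 2.76 CPM, at the low end together with C9 (1.35 to 6.99 CPM), which overlapped them. C5, the cluster with the most Igf2, had 1 Igf1r UMI in mouse 1 and 0 in mouse 2, which allows up to 11.6 CPM in the latter. Igf2r, which clears IGF2 without signalling as IGF1R does, was present in C5 at 40.6 and 38.7 CPM, from 5 and 10 UMIs.

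**Figure D2:**
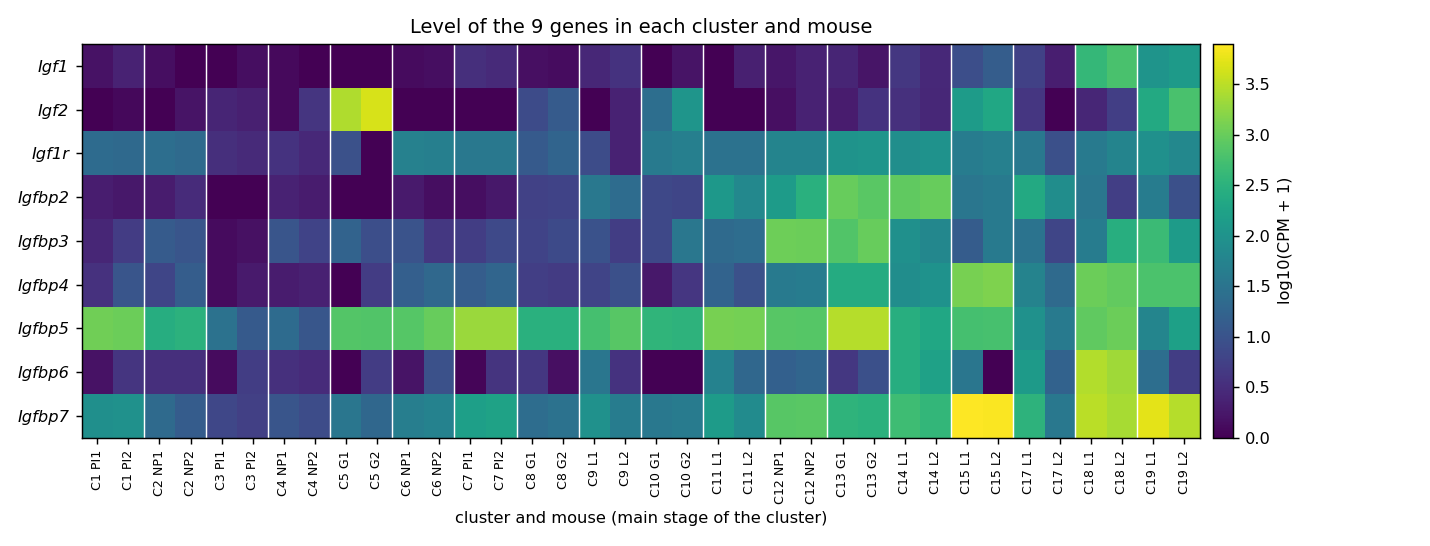
Level of each of the 9 genes (rows) in each cluster and mouse (columns, main stage of the cluster), as log10 of CPM plus 1. Igf2 stands out in C5, Igf1 in C18 and C19, Igfbp2 in C13 and C14, Igfbp3 in C12 and C13, and Igfbp5 in most clusters other than C3 and C4.

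All binding proteins but Igfbp5 were higher in basal than in luminal cells. Within each of the 8 mice, basal cells (C12 to C14 summed) were above luminal cells (C1 to C11 summed) in Igfbp2, Igfbp3, Igfbp4, Igfbp6, Igfbp7 and also in Igf1r. The median difference of log2(CPM + 1) over the mice was 6.58 for Igfbp3 (2.07 to 7.34), 5.86 for Igfbp2 (3.32 to 7.39), 3.02 for Igfbp7 (1.52 to 5.78), 3.01 for Igfbp4 (2.59 to 5.73), 2.55 for Igfbp6 (1.63 to 5.44) and 2.35 for Igf1r (1.06 to 2.83). Igfbp5 was the exception among the binding proteins: basal cells were higher in the 4 NP and G mice, by 2.01 to 3.25, and lower in the 4 L and PI mice, by 0.27 to 2.25 on the same scale. Clusters were made from these counts, so these differences are a description and were given no test.

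Among the clusters, Igfbp2 was highest in C14 and C13, which overlapped (882 and 994 against 972 and 798 CPM), and Igfbp3 in C12 (1101 and 1070 CPM) ahead of C13 (702 and 990 CPM). Igfbp6 was highest of the epithelium in C14, at 265 and 171 CPM, with 678 to 3959 CPM in the fibroblasts. Of the epithelial clusters, C15 led in Igfbp4 (1256 and 1393 CPM) and Igfbp7 (7897 and 7555 CPM). Pericyte markers in C15 summed to 5636 and 4899 CPM, against at most 118 CPM in basal cells, and their part in these levels was not tested. Fibroblasts of G mice held more Igfbp4, at 2382 and 2878 CPM. The endothelial cluster C19 held 47.2% and 70.5% of the Igfbp7 UMIs of G mice. Igfbp5 was highest in C13, at 2862 and 2895 CPM, ahead of C7 at 2033 and 2022 CPM. It was lowest in C3 and C4, at 9.93 to 28.5 CPM.

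Promoter sequences were taken from RefSeq (GRCm38.p6), which had 13 windows for the 9 genes. The 250 bases before the start are shown for the binding proteins called in the most stage comparisons, Igfbp5 and Igfbp7 (8 each) and Igfbp3 (4), and for Igf2, of whose 4 listed starts the window with the most motif matches is shown. All lie on the minus strand, at chr1:72874866-72875115 for Igfbp5, chr5:77408046-77408295 for Igfbp7, chr11:7213924-7214173 for Igfbp3 and chr7:142657497-142657746 for Igf2. They are written 5′ to 3′ in lower case, with matches in capitals.
Igfbp5: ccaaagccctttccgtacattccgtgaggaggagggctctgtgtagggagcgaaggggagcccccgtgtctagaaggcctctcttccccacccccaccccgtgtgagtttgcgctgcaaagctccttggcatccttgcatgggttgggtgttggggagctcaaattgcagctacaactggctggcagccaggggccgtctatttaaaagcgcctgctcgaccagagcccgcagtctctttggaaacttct
Igfbp7: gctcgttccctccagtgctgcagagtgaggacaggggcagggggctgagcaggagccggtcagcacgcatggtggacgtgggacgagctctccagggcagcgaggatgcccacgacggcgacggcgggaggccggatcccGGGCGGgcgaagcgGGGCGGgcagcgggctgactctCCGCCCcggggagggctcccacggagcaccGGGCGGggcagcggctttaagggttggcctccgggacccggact
Igfbp3: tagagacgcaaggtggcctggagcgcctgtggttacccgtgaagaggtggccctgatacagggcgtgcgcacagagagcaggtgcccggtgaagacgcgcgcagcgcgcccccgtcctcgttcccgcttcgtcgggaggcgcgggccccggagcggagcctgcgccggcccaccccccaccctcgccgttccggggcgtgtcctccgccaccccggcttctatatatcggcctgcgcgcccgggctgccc
Igf2: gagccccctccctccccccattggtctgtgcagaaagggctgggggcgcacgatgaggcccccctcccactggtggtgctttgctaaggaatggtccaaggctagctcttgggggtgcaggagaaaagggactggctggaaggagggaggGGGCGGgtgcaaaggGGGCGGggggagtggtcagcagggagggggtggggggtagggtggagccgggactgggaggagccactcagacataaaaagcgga
Motifs were searched on both strands, as the TATA box TATAAA, the GC box GGGCGG and the STAT motif TTCNNNGAA. The capitals above are all GGGCGG or its complement. It occurred in 5 of the 13 windows, against 32.7% of 32851 windows of the same length, with 4 matches in Igfbp7, 2 in the Igf2 window shown and none in Igfbp3 or Igfbp5. TATAAA occurred in 2 windows, those of Igfbp4 and Igfbp6 (12.4% of all windows), and TTCNNNGAA in 0 of 13 (7.02% of all windows). Igfbp2 (chr1:72824503-72852474, plus strand) and Igfbp5 (chr1:72857932-72874884, minus strand) are neighbours in GRCm38, 5457 bases apart. Counts of 3′ ends do not show which of the Igf2 starts was used.

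Changes between stages were tested with the mouse as the replicate, by edgeR's quasi-likelihood F-test on summed UMIs with Benjamini-Hochberg adjustment over all genes tested. A sum cannot tell more cells with a transcript from more of it per cell. The labels give separate mice, and edgeR combined the spread between them for each gene with that of all genes. In basal cells, Igf1r and 3 binding proteins were higher in gestation and Igfbp7 was lower. Of 8 members tested, 5 passed the threshold between G and NP, 4 higher and 1 lower, where 40.5% of all 11870 genes passed (21.2% higher and 19.3% lower). Igfbp4, an inhibitory binding protein, stood at 37.8 and 42.3 CPM in NP and 251 and 246 CPM in G. Its log2 fold change was 2.72 (SE 0.16, adjusted p = 3.1e-13), 6.58-fold higher. Igfbp5 went from 777 and 752 CPM to 2854 and 2874 CPM, a log2 fold change of 1.98 (SE 0.16, adjusted p = 2.3e-10). The stages did not overlap in either gene.

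Igf1r stood at 57.1 and 55.5 CPM in NP basal cells and 98.8 and 105 CPM in G, a log2 fold change of 0.93 (SE 0.16, adjusted p = 3.8e-05). Igfbp2 stood at 137 and 304 CPM in NP and 972 and 786 CPM in G, a log2 fold change of 2.08 (SE 0.47, adjusted p = 0.0258). The stages did not overlap in Igfbp2, but its call held in only 11 of 17 alternatives and was lost, among others, without either G mouse. Igfbp7 was the member that fell, from 762 and 792 CPM to 355 and 317 CPM, by 1.13 on the log2 scale (SE 0.15, adjusted p = 6.6e-07). Igfbp3 (701 and 994 CPM in G) did not pass (adjusted p = 0.273). Igfbp6, at 14.6 and 17.8 CPM in NP and 11.8 and 7.85 CPM in G, did not pass (adjusted p = 0.113, and 0.0200 to 0.482 under the alternatives). With the largest cluster of each stage summed alone, an alternative chosen after the values were seen, it did (3.29 and 8.01 CPM in C13, log2 fold change -1.38, adjusted p = 0.0226). Fibroblast markers summed to 187 to 273 CPM in NP and 689 to 912 CPM in G basal cells. As a share of the level in fibroblasts of the same mouse these markers were at 1.82% and 1.24% in G, and Igfbp4 at 10.5% and 8.54%.

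In lactation Igfbp3, Igfbp4 and Igfbp5 were lower in basal cells than in gestation, and Igfbp6 was higher. Between L and G, 5 of 8 members passed, 2 higher and 3 lower, where 50.6% of all genes passed (25.5% higher and 25.1% lower), so the share of members called is near that of all genes. This contrast shares its G mice with the previous one. Its L cells are almost all C14, which the authors named myoepithelial, and its G cells are mostly C13, which they named basal. Igfbp5 dropped from 2854 and 2874 CPM to 275 and 207 CPM, by 3.44 on the log2 scale (SE 0.16, adjusted p = 4.2e-15), 10.9-fold lower. Igfbp3 dropped from 701 and 994 CPM to 90.1 and 62.2 CPM, by 3.34 on the log2 scale (SE 0.22, adjusted p = 6.0e-08). Both ended below their NP levels in each mouse.

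Igfbp6, a binding protein with a preference for IGF2, was the member with the largest rise in lactating basal cells. It stood at 11.8 and 7.85 CPM in G and 265 and 171 CPM in L, a log2 fold change of 4.61 (SE 0.24, adjusted p = 6.0e-11). Of the 47 Igfbp6 UMIs of basal cells in G mouse 1, 34 lay in 1 cell of C14, and C13 alone held 3.29 and 8.01 CPM in the G mice, which gave a log2 fold change of 5.36 (adjusted p = 2.0e-07). Of C14 cells 52.0% and 45.8% held a UMI of Igfbp6, and of C13 cells 2.48% and 1.52%, at median depths of 3701 and 4148 against 6201 and 6060 UMIs per cell. With 1000 UMIs per cell the shares were 19.9% and 13.9% against 0.762% and 0.168%. Igfbp4 fell from 251 and 246 CPM to 79.1 and 94.9 CPM, by 1.38 on the log2 scale (SE 0.14, adjusted p = 3.1e-09). Igfbp7 was at 355 and 317 CPM in G and 492 and 376 CPM in L (log2 fold change 0.50, SE 0.14, adjusted p = 0.00524), a call that was lost without G mouse 2 or L mouse 1 and turned to -0.26 with equal cell numbers. Igf1r, at 81.9 and 94.5 CPM in L, and Igfbp2, at 882 and 994 CPM, did not pass (adjusted p = 0.682 and 0.716). Early-response genes, which are induced by tissue dissociation, summed to 20477 to 25554 CPM in L basal cells against 3518 to 5873 CPM in G, and their part in these changes was not tested.

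After involution basal cells had lower levels of 3 binding proteins than those of nulliparous mice. Of 8 members tested 3 passed between PI and NP, all lower, where 5.43% of all genes passed (2.15% higher and 3.29% lower). This contrast shares its NP mice with that of gestation above. Igfbp3 stood at 254 and 377 CPM in PI against 1101 and 1085 CPM in NP, a log2 fold change of -1.86 (SE 0.25, adjusted p = 0.000708), 3.64-fold lower. Igfbp7 stood at 297 and 278 CPM against 762 and 792 CPM, a log2 fold change of -1.60 (SE 0.18, adjusted p = 8.7e-07), 3.02-fold lower. Igfbp5 stood at 455 and 617 CPM against 777 and 752 CPM, a log2 fold change of -0.61 (SE 0.17, adjusted p = 0.0352). This call held in only 9 of 17 alternatives. It was lost, among others, under DESeq2 (adjusted p = 0.161) and on leaving out any of the 4 NP and PI mice. In C12 alone, with 27 and 53 PI cells, Igfbp3 was at 260 and 247 CPM, Igfbp7 at 305 and 271 CPM and Igfbp5 at 466 and 359 CPM in PI, and the log2 fold change of Igfbp5 was -1.08 (adjusted p = 9.2e-05). Igfbp6 was at 52.5 and 48.0 CPM in PI, from 6 and 15 UMIs, against 14.6 and 17.8 CPM in NP, and did not pass (adjusted p = 0.0801). Igfbp2 was at 17.5 and 70.4 CPM against 137 and 304 CPM and did not pass either (adjusted p = 0.275). Of its 22 UMIs in PI mouse 2, 17 lay in cells of C13, and C12 alone held 17.9 and 17.6 CPM in the PI mice, from 2 and 5 UMIs (adjusted p = 0.114). The PI levels rest on 28 and 59 cells, and the following values bear on all 3 calls. Immune markers summed to 1180 and 291 CPM in PI mice 1 and 2 against 279 to 288 CPM in NP, and hormone-sensing markers to 8.74 and 687.7 CPM against 227 and 258 CPM, and their part was not tested. The median of all genes was -0.20 on the log2 scale, and 39.5% of calls were higher in PI, while with RLE size factors the median was -0.08 and the share 58.7%.

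**Figure D3:**
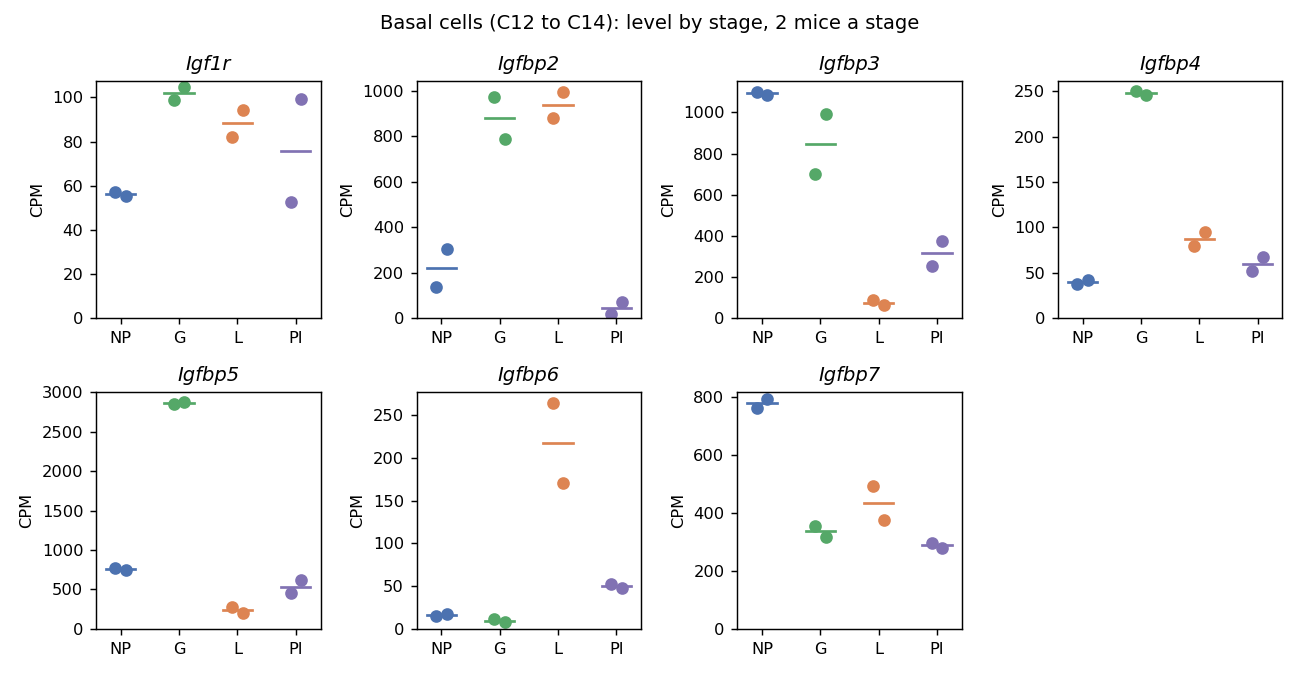
CPM of Igf1r and the 6 binding proteins in basal cells (C12 to C14) at the 4 stages, with 1 point a mouse and a line at the mean of 2 mice. Igfbp4 and Igfbp5 peak in G (251 and 246, and 2854 and 2874 CPM), Igfbp6 in L, and Igfbp3 and Igfbp7 in NP.

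In luminal progenitors Igfbp5 and Igfbp7 were higher in PI than in NP. Of 7 members tested 3 passed between PI and NP, all higher, where 28.1% of all genes passed (14.5% higher and 13.6% lower). Igfbp5 stood at 734 and 999 CPM in NP and 1999 and 2013 CPM in PI, a log2 fold change of 1.29 (SE 0.17, adjusted p = 7.1e-05). Igfbp7 stood at 45.9 and 53.0 CPM in NP and 155 and 174 CPM in PI, a log2 fold change of 1.82 (SE 0.15, adjusted p = 1.3e-06). Igf1 also passed, from 1 and 1 UMIs in NP to 17 and 15 in PI, or 0.302 and 0.414 against 2.25 and 1.87 CPM (log2 fold change 2.56, SE 0.78, adjusted p = 0.0259). It met the filter on low counts only through the PI mice, so its direction was set by the filter. The ratio of the summed levels was 5.89, with an exact counting interval of 1.5 to 50.7, and the call did not hold under DESeq2 (adjusted p = 0.237) or without NP mouse 1 or 2 (adjusted p = 0.209 and 0.0957), while without PI mouse 1 or 2 the gene was not among those tested. Igf1r was at 50.1 and 47.2 CPM in NP and 35.7 and 35.7 CPM in PI, without overlap, and did not pass (adjusted p = 0.0742). Milk protein genes summed to 770 to 1445 CPM in these NP cells and 13392 to 14585 CPM in the PI cells. Igfbp5 and Igfbp7 were also called with these genes left out of the counts. Any other part of the milk protein change was not tested.

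Igfbp5 and Igfbp7 were also higher in hormone-sensing progenitors of PI mice, and Igfbp3 was lower. Of 5 members tested 3 passed, 2 higher and 1 lower, where 18.1% of all genes passed (10.3% higher and 7.81% lower). Igfbp5 stood at 263 and 320 CPM in NP and 1092 and 1055 CPM in PI, a log2 fold change of 1.86 (SE 0.17, adjusted p = 4.7e-07). Igfbp7 stood at 20.9 and 12.4 CPM in NP and 83.6 and 93.5 CPM in PI, a log2 fold change of 2.38 (SE 0.19, adjusted p = 2.4e-07). Igfbp3 went the other way, from 12.2 and 9.82 CPM to 1.54 and 3.96 CPM (log2 fold change -1.78, SE 0.36, adjusted p = 0.00205). These NP levels of Igfbp3 were 1.11% and 0.905% of those in basal cells of the same mice, where the summed basal markers were at 1.36% and 0.775% of their basal level. Milk protein genes summed to 198 to 336 CPM in the NP and 6634 to 7308 CPM in the PI cells of this type. The 3 calls also held with these genes left out of the counts. Any other part of the milk protein change in them was not tested.

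In differentiated hormone-sensing cells Igfbp5 did not pass between PI and NP. It was at 22.0 and 9.89 CPM in NP and 27.7 and 12.6 CPM in PI, overlapping ranges (adjusted p = 0.929). Of 7 members tested 2 passed between PI and NP, both lower, where 18.6% of all genes passed (8.45% higher and 10.1% lower). Igfbp3 stood at 9.71 and 5.15 CPM in NP and 0.274 and 0.560 CPM in PI (log2 fold change -3.91, SE 0.45, adjusted p = 8.3e-14), and Igfbp7 at 9.87 and 7.15 against 5.48 and 4.55 CPM (log2 fold change -0.89, SE 0.28, adjusted p = 0.0146). These levels are low: the NP levels of Igfbp3 were 0.882% and 0.475% of the basal level in the same mice, and basal markers, at 1.29% and 0.560% of theirs in NP, were at 0.148% and 0.277% in PI. The call of Igfbp7 held in 8 of the 12 alternatives in which it was tested. The part of basal transcripts in the calls of Igfbp3 and Igfbp7 was not tested. The spread in this fit, which also gave the contrast of gestation, came almost wholly from all genes and hardly from a gene's own mice (248 prior against 3 residual degrees of freedom).

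A test of whether NP and PI mice differed by unlike amounts in the 4 cell types passed in 3 of 7 members, where 19.7% of all genes did. Igfbp7 was lower in PI in basal and differentiated hormone-sensing cells and higher in both progenitor types (adjusted p = 1.2e-17). Igfbp3 fell in basal cells and in both hormone-sensing types, while luminal progenitors were at 9.05 and 3.31 CPM in NP and 4.24 and 7.48 CPM in PI (adjusted p = 9.0e-06). Igfbp2 passed too (adjusted p = 0.0263), with 1 to 7 UMIs per mouse in both progenitor types. For Igfbp5 the difference did not pass (adjusted p = 0.0737, and 3.6e-28 to 0.343 under the alternatives). Without PI mouse 2, Igfbp2 and Igfbp3 did not pass (adjusted p = 0.0679 and 0.117), nor did they with equal cell numbers (adjusted p = 0.473 and 0.957).

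**Figure D4:**
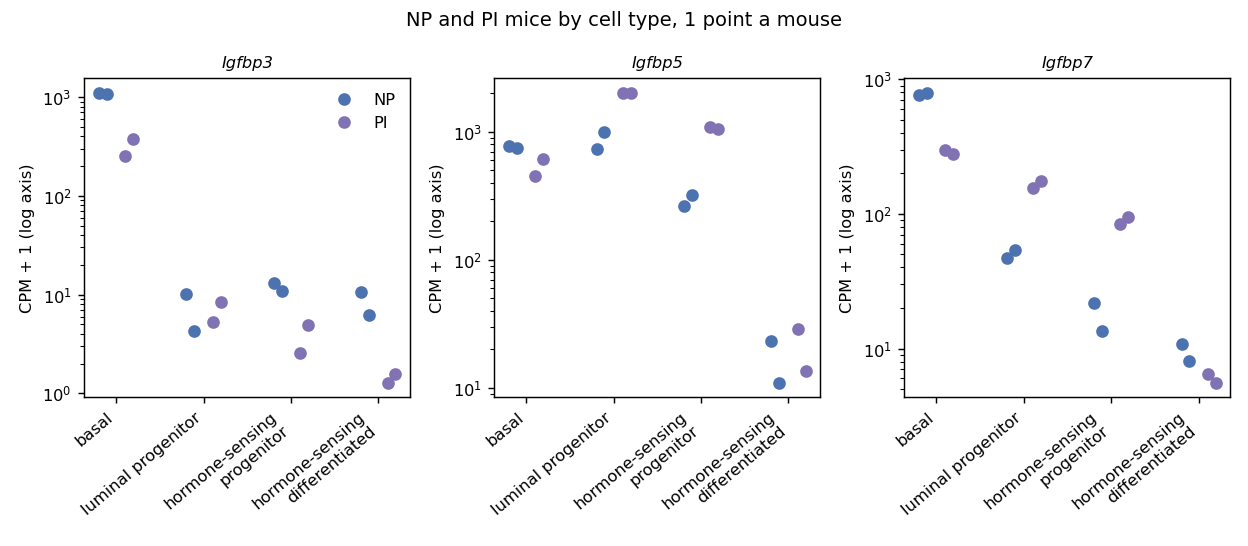
Igfbp3, Igfbp5 and Igfbp7 in NP and PI mice in 4 cell types, as CPM plus 1 on a log axis with 1 point a mouse. Igfbp7 moves down in basal cells (762 and 792 to 297 and 278 CPM) and up in luminal progenitors (45.9 and 53.0 to 155 and 174 CPM) and hormone-sensing progenitors.

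Differentiated hormone-sensing cells of gestation differed from those of NP mice in Igf2 and Igfbp5. Of 7 members tested these 2 passed, both higher, where 17.4% of all genes passed (7.19% higher and 10.2% lower). This contrast shares NP mice with that of PI, and its G sums are C5. Igf2 stood at 0.235 and 3.02 CPM in NP (3 and 44 UMIs) and 2726 and 4575 CPM in G (336 and 1182 UMIs), a log2 fold change of 10.78 (SE 1.05, adjusted p = 0.0105). Igfbp5 stood at 22.0 and 9.89 CPM in NP and 714 and 681 CPM in G, a log2 fold change of 5.19 (SE 0.59, adjusted p = 0.0106), 36.6-fold higher. Without G mouse 2, which gave 41 of the C5 cells, neither passed (adjusted p = 0.0826 for Igf2 and 0.143 for Igfbp5), and without G mouse 1 Igfbp5 did not (adjusted p = 0.0671), while without either G mouse the log2 fold changes were 10.39 or more for Igf2 and 5.15 or more for Igfbp5. Receptor markers of the lineage (Esr1, Prlr and Pgr, summed) were at 974 to 1250 CPM in C5, against 2459 to 2515 CPM in the NP cells and 13.7 to 16.3 CPM in G basal cells.

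The change from NP to G was also tested between basal and differentiated hormone-sensing cells, a test added after the values were seen. It passed in 3 of 8 members, where 17.2% of all genes passed: Igf2 (adjusted p = 4.1e-11), Igfbp5 (adjusted p = 6.5e-42) and Igfbp7 (adjusted p = 0.00465). In this fit the spread was taken from the trend over all genes, with no weight on a gene's own mice, so these p-values do not measure the gene's own spread between mice. Of 11 alternatives, Igf2 passed in 10, Igfbp5 in 11 and Igfbp7 in 9. Igf2 in basal cells was at 0.470 and 1.37 CPM in NP and 1.01 and 2.69 CPM in G, overlapping ranges. Igfbp5 was higher in G in both cell types, by 1.98 in basal and 5.19 in hormone-sensing cells on the log2 scale. Igfbp7 was lower in basal cells of G and stood at 32.5 and 19.4 CPM in C5, from 4 and 5 UMIs, against 9.87 and 7.15 CPM in NP.

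In the alveolar lineage Igfbp5 rose with lactation, where it had fallen in basal cells. Of 7 members tested in alveolar progenitors 4 passed between L and G, all higher, where 28.9% of all genes passed (16% higher and 12.9% lower). Of these, Igfbp2 and Igfbp6 met the filter on low counts only through the L mice. Their direction was thus set by the filter. In differentiated alveolar cells 3 of 9 passed, all higher, where 19% of all genes passed (9.37% higher and 9.67% lower). These contrasts share their G and L mice with that in basal cells. In alveolar progenitors Igfbp5 stood at 352 and 335 CPM in G and 1202 and 1193 CPM in L, a log2 fold change of 2.09 (SE 0.14, adjusted p = 6.6e-07). In differentiated alveolar cells it stood at 295 and 296 CPM in G and 563 and 777 CPM in L, a log2 fold change of 2.09 (SE 0.20, adjusted p = 4.9e-06). There the fitted fold of 4.27 exceeds the ratio of mean CPM, 2.27. The 8 milk protein genes took 416266 to 443712 CPM of the L sums and 57393 to 96653 CPM of the G sums, and with them left out of the total Igfbp5 was at 326 and 314 CPM in C8 and 1024 and 1314 CPM in C9. Igfbp5 in the L alveolar cells was also above that in basal cells of the same mice, at 437% and 577% of the basal level in progenitors and 205% and 376% in differentiated cells.

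The other members called in the L alveolar cells were higher there beside basal markers. Igfbp2 stood at 6.12 and 5.61 CPM in G and 115 and 64.4 CPM in L in alveolar progenitors (log2 fold change 4.22, SE 0.37, adjusted p = 9.7e-06), and at 4.76 and 5.10 against 34.6 and 22.8 CPM in differentiated cells (log2 fold change 3.41, SE 0.35, adjusted p = 9.5e-06). These L levels were 13.1% and 6.48%, and 3.93% and 2.30%, of the basal level in the same mice. The summed Krt5, Krt14 and Acta2 were at 13.9% and 11.3%, and 6.19% and 3.01%, of theirs. Igfbp6 had 0 UMIs in G alveolar progenitors and 52.3 and 18.4 CPM in L (adjusted p = 0.00269), at least 36.4-fold higher against a limit of 3 UMIs over both G mice, and its L levels were 19.7% and 10.7% of the basal level. Fibroblasts of the L mice held 2762 and 2233 CPM of Igfbp6, and fibroblast markers summed to 22.5 to 30.6 CPM in G and 70.2 to 128 CPM in L alveolar progenitors, and their part was not tested.

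Igfbp7 stood at 36.0 and 40.6 CPM in G and 131 and 74.8 CPM in L in alveolar progenitors (log2 fold change 1.73, SE 0.27, adjusted p = 0.000772), 26.7% and 19.9% of the basal level in L. In differentiated alveolar cells it stood at 24.0 and 28.3 against 93.5 and 41.6 CPM (log2 fold change 2.22, SE 0.28, adjusted p = 0.000219), 19% and 11.1% of the basal level. The part of basal transcripts in the changes of Igfbp2, Igfbp6 and Igfbp7 was not tested. Igf2 was at 24.5 and 106 CPM in G and at 0 UMIs in both L mice in alveolar progenitors, and did not pass (adjusted p = 0.281). Igf1r, at 39.8 and 46.8 CPM in G and 27.5 and 27.6 CPM in L, did not pass (adjusted p = 0.300).

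**Figure D5:**
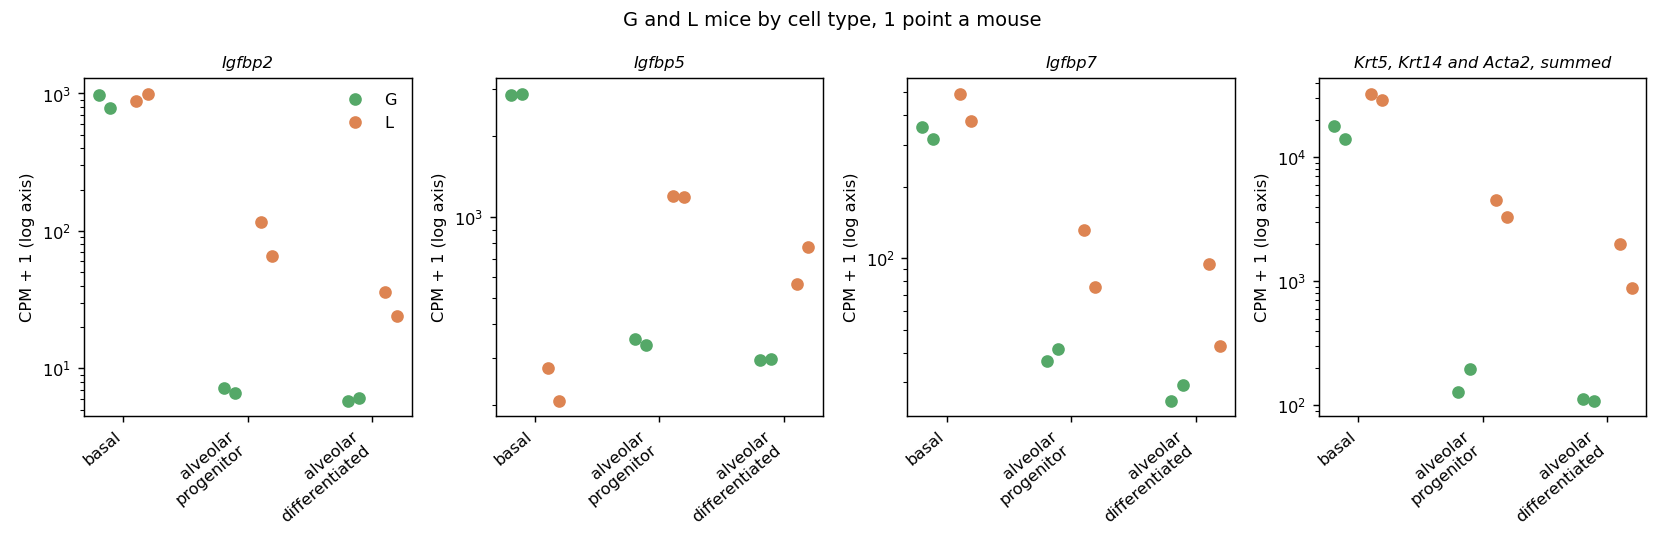
Igfbp2, Igfbp5 and Igfbp7 and the sum of 3 basal markers in G and L mice in basal cells, alveolar progenitors and differentiated alveolar cells, as CPM plus 1 on a log axis with 1 point a mouse. Igfbp5 moves down in basal cells (2854 and 2874 to 275 and 207 CPM) and up in alveolar progenitors (352 and 335 to 1202 and 1193 CPM), while the basal markers, Igfbp2 and Igfbp7 are higher in the L alveolar cells.

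The change from G to L differed between basal cells, alveolar progenitors and differentiated alveolar cells in 6 of 8 members in a test added after the values were seen, where 27.8% of all genes passed. They were Igf2 (adjusted p = 1.8e-05), Igfbp2 (adjusted p = 4.5e-10), Igfbp3 (adjusted p = 0.000222), Igfbp4 (adjusted p = 1.3e-07), Igfbp5 (adjusted p = 7.0e-17) and Igfbp7 (adjusted p = 2.2e-07). Igfbp5 fell in basal cells and rose in both alveolar types. Igfbp4 fell in basal cells, and in alveolar cells stood at 0.765 to 4.35 CPM in G and 5.19 to 16 CPM in L. Igfbp3 fell in basal cells and was not called in either alveolar type (adjusted p = 0.643 and 0.276). Its difference between cell types passed in 10 of 11 alternatives. Igf2 was not called in alveolar progenitors or differentiated alveolar cells alone (adjusted p = 0.281 and 0.184). In C10 of the G mice, 1 and 4 cells held 84.4% and 99.4% of the Igf2 UMIs.

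Over the 9 comparisons between stages, Igfbp5 and Igfbp7 were called most often, in 8 of 9 each, Igfbp5 higher in 6 and Igfbp7 in 5. Igfbp3 was called in 4 of 9, all lower, and Igfbp2 in 3 of 5, all higher. Igf1r was tested in 9 and called in 1. The direction of the Igfbp2 call in alveolar progenitors was set by the filter on low counts. These comparisons share mice, so the counts are not independent. In single comparisons 5.43% to 50.6% of all genes were called. The share of all genes called this often is not given here, so the counts do not set these members apart from other genes.

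Other genes of the pathway, 34 in a list of ligands, proteases, receptors and signalling genes, were read from the same fits. In basal cells 12 of 26 tested passed between G and NP (8 higher) where 40.5% of all genes did, 13 of 26 between L and G (7 higher) where 50.6% did, and 4 of 26 between PI and NP (2 higher) where 5.43% did. In PI against NP, 10 of 25 passed in luminal progenitors (7 higher, 28.1% of all genes), 8 of 26 in hormone-sensing progenitors (6 higher, 18.1% of all genes) and 10 of 26 in differentiated hormone-sensing cells (6 higher, 18.6% of all genes). In G against NP 10 of 26 passed in differentiated hormone-sensing cells (7 higher, 17.4% of all genes). In L against G 10 of 26 passed in differentiated alveolar cells (7 higher, 19% of all genes) and 6 of 23 in alveolar progenitors (4 higher, 28.9% of all genes). The median of the list lay between -0.14 and 0.27 on the log2 scale, against -0.24 to 0.03 over all genes tested. Of the list, 18 genes passed in 2 or more comparisons, and the share of all genes that did so is not given here.

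Values follow for genes of this list that act on binding proteins. Pappa, the protease that cleaves IGFBP4, was at 49.8 and 35.1 CPM in NP and 43.8 and 48.0 CPM in G basal cells (adjusted p = 0.549) and at 2.18 and 1.32 CPM in L (log2 fold change L against G -4.54, adjusted p = 5.9e-14). It was lower in PI than in NP (log2 fold change -2.35, adjusted p = 0.0180, from 0 and 4 UMIs in PI) and was called higher in C5 on 2 and 7 UMIs. In the fit of differentiated hormone-sensing cells Pappa met the filter on low counts only through the G mice. Its direction in C5 was thus set by the filter. Stc2, a stanniocalcin that inhibits this protease, was at 52.6 and 49.2 CPM in NP and 8.05 and 6.06 CPM in G basal cells (log2 fold change -2.78, adjusted p = 8.2e-10), and lower again in L. In differentiated hormone-sensing cells Stc2 was at 137 and 142 CPM in NP, 0 and 1 UMIs in G, and 218 and 267 CPM in PI (log2 fold change PI against NP 0.70, adjusted p = 0.000611).

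Htra1, a serine protease that degrades IGFBP5, was at 151 and 153 CPM in NP, 440 and 437 CPM in G, 184 and 175 CPM in L and 43.7 and 67.2 CPM in PI basal cells. It was called in each of the 3 basal contrasts, at log2 fold changes of 1.60 (adjusted p = 8.6e-10), -1.16 (adjusted p = 4.8e-08) and -1.48 (adjusted p = 0.000383). In C12 alone the PI level was 44.8 and 21.1 CPM, from 5 and 6 UMIs (log2 fold change -2.58, adjusted p = 1.8e-06). Stc1, the other stanniocalcin, was called higher in 3 comparisons, at log2 fold changes of 1.76 to 2.28. Igfals, whose product carries the ligands with IGFBP3 or IGFBP5 in blood, was called higher in 6 comparisons, all in luminal types, at 0.97 to 2.98 on the log2 scale. H19 was at 6.73 and 3.57 CPM in NP, 454 and 612 CPM in G and 0 and 0.125 CPM in PI differentiated hormone-sensing cells, and was called in both contrasts (log2 fold change 6.47 for G, adjusted p = 2.5e-59).

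Downstream of the receptor, Irs2, a docking protein of insulin and IGF receptors, was called higher in 7 of 9 comparisons. Its largest change was in basal cells of G, from 32.7 and 28.7 CPM in NP to 165 and 142 CPM (log2 fold change 2.38, adjusted p = 6.0e-12). Pik3r1, the regulatory subunit of PI3 kinase, was called higher in 8 of 9, with 202 and 144 CPM in G and 657 and 666 CPM in L basal cells (log2 fold change 2.07, adjusted p = 2.2e-08). Socs2, an inhibitor of growth hormone signalling, was called higher in 6, and stood at 56.1 and 57.2 CPM in NP, 479 and 553 CPM in G and 251 and 251 CPM in PI differentiated hormone-sensing cells (log2 fold changes 2.93, adjusted p = 3.9e-32, and 2.04, adjusted p = 1.1e-22). Ghr, the growth hormone receptor, was called higher in 4 and Irs1 in 3. Grb10, an imprinted inhibitor of these receptors, was called lower in 4, by 1.37 to 1.99 as fitted log2 differences. Foxo1, Foxo3, Rps6kb1, Shc1 and the mRNA-binding Igf2bp3 were called in both directions in different comparisons, and Akt2 was called lower in 2.

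Genes with the most similar pattern were ranked by Pearson correlation of log2(CPM + 1) over 35 sums, from 15 epithelial clusters and 8 mice, among 8023 genes. These values are a description, since sums of 1 mouse share a library and clusters were made from the same counts. H19 was nearest to Igf2 (r = 0.914), followed by Pnmt (0.839) and Mrps24 (0.820). Igfbp2 was nearest to Actg2, a smooth muscle actin (0.960), and Igfbp3 to Snai2, a transcription factor of basal cells (0.913). Igf1r was nearest to Ttc28 (0.909), Igfbp4 to Snhg18 (0.942), Igfbp5 to Deptor, an inhibitor of mTOR (0.821), Igfbp6 to Clmp (0.851) and Igfbp7 to Ackr3, a chemokine scavenger (0.900).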

How the data were processed

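Single-cell libraries of 8 mice (2 a stage) were analysed. The counts were UMIs per gene and cell barcode, deposited as raw matrices; the authors ran Cell Ranger against mm10. The submitters' processing notes name STAR, and versions were not given in the sources used here. The deposited cell annotation gave the authors' quality flags, clusters and, per cell, the mitochondrial fraction of UMIs, which was not used further. Barcodes of the flagged cells were joined to the matrices (25009 cells, 24699 in C1 to C19). For 1053 of them the annotated UMI total differed from that in the matrix. The doublet cluster was left out and no doublet caller was run.

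UMIs were summed per mouse and cluster, or cell type, in Python 3.11.15. Stage contrasts used edgeR 4.0.16 in R 4.3.3 (TMM scaling, filterByExpr with a minimum count of 10 and total of 15, quasi-likelihood F-test, Benjamini-Hochberg threshold 0.05), with 1 fit per cell type over all stages with enough cells and 2 to 4 residual degrees of freedom. Sums per cell type pooled its clusters. Differences between cell types were tested as cell type by stage terms, and those from NP to G and from G to L were added after the values were seen. Scripts were tested on simulated data, in which 24% to 37% of 2-fold and 95% to 100% of 4-fold changes were recovered in the stage comparisons. The simulated dispersion (spread between mice beyond counting) was 0.05, above the common values of 0.012 to 0.0171 in these fits. A member that did not pass is thus not shown to be unchanged. Alternatives were RLE size factors, DESeq2 1.42.0, other filters, equal cell numbers, totals without 8 milk protein genes, a replicate block, leaving out each mouse, and the largest cluster of each stage alone. Replicate numbers did not pair mice: deviations of same-numbered mice correlated at -0.052 to 0.073. Shares of cells carry exact 95% binomial intervals, and a count of 0 was read against 3 counts.

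The text names the 9 members, other pathway genes called in 2 or more comparisons, and, for each member with 20 CPM or more in a cluster, genes among the 3 of most similar pattern (mean of 10 CPM or more). Igf2r was added as the second receptor of Igf2 after its values were seen. The members and lists were chosen with earlier results of these data known.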

Additional observations from a re-analysis of the deposited data

Results flagged for a closer look

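The change between stages differed between cell types for the following members (edgeR's quasi-likelihood F-test of the cell type by stage terms, Benjamini-Hochberg adjusted over all genes). From NP to PI, Igfbp7 differed at an adjusted p of 1.2e-17, with log2 fold changes of -1.60 in basal cells, -0.89 in differentiated hormone-sensing cells, 1.82 in luminal progenitors and 2.38 in hormone-sensing progenitors. Igfbp3 differed at an adjusted p of 9.0e-06, with -1.86 in basal cells, -3.91 and -1.78 in the differentiated and progenitor hormone-sensing cells and -0.06 in luminal progenitors. Igfbp2 differed at an adjusted p of 0.0263, with -2.13 in basal cells, where it did not pass alone.

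From NP to G, basal cells were set against differentiated hormone-sensing cells. Igfbp5 differed at an adjusted p of 6.5e-42, with log2 fold changes of 1.98 and 5.19. Igf2 differed at an adjusted p of 4.1e-11, with 1.31 and 10.78, the first not called. Igfbp7 differed at an adjusted p of 0.00465, with -1.13 and 1.22, the second not called. The spread in this fit was taken from the trend over all genes, with no weight on a gene's own mice.

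From G to L, basal cells, alveolar progenitors and differentiated alveolar cells were compared. Igfbp5 differed at an adjusted p of 7.0e-17, with log2 fold changes of -3.44, 2.09 and 2.09. Igfbp2 differed at 4.5e-10 (adjusted p), with 0.22, 4.22 and 3.41, and Igfbp7 at 2.2e-07, with 0.50, 1.73 and 2.22. Igfbp4 differed at an adjusted p of 1.3e-07, with -1.38 in basal cells and 1.65 in differentiated alveolar cells, the latter not called. Igfbp3 differed at an adjusted p of 0.000222, with -3.34, 0.49 and 0.99, and Igf2 at an adjusted p of 1.8e-05, with 202 UMIs in G and 0 in L in alveolar progenitors. In the G mice 1 and 4 cells held 84.4% and 99.4% of these Igf2 UMIs, and Igf2 was called in neither alveolar type alone.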

How the results depend on the processing

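Of 30 calls of members in the 9 stage comparisons, 23 held under every setting in which they were tested, and 521 of 556 recomputed values kept their direction and side of the threshold. Igfbp7 in basal cells, L against G, turned to -0.26 on the log2 scale with equal cell numbers (adjusted p = 0.499). In differentiated hormone-sensing cells, PI against NP, 2 members were called, but 0 with the filter of 0.1 UMIs a cell and 0 with equal cell numbers (2 members tested in each), and 1 with DESeq2. The 2 called members, Igfbp3 and Igfbp7, were not among those tested under that filter or with equal cell numbers. These counts of 0 therefore do not bear on their calls. In differentiated alveolar cells DESeq2 called 6 members against 3. Without 1 mouse, calls ran from 0 to 2 in differentiated hormone-sensing cells, G against NP, from 4 to 7 in alveolar progenitors, and from 1 to 5 for the change from NP to PI between cell types. Fits with only the mice of the 2 stages, and with the largest cluster of each cell type and stage in place of the pooled clusters, were chosen after seeing the data. The latter called 6 members in basal cells, G against NP (5 pooled), and 4 for the change from NP to PI between cell types (3), with the other counts as in the pooled fit. The causes were not tested.

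With the replicate block, 4 members were called in basal cells, PI against NP (3 without it), 4 in differentiated alveolar cells (3) and 5 in alveolar progenitors (4), with the other counts as without it. No paired analysis was possible for differences between cell types because the mouse was already a term.

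Calls over all genes moved by more than 1.5 times with equal cell numbers (10 comparisons, 147 to 1388 calls), DESeq2 (5, 823 to 1589), the 0.1 UMI filter (3, 1295 to 3485), and without NP mouse 1 (6, 920 to 2859), NP mouse 2 (3, 725 to 1200), G mouse 1 (4, 1090 to 1952), G mouse 2 (5, 530 to 1611) or PI mouse 2 (basal cells, PI against NP, 141 against 645). The highest cluster of each of the 9 members was the same with a minimum of 10 cells and without milk protein genes.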
